A study of Homo sapiens with 12 samples.

Results

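The 6 genes described here, FOLH1, STEAP1, STEAP2, PSCA, CD276 and GRPR, encode cell surface proteins that have been used or tried as targets for imaging or treating prostate cancer. They form a list of genes given by name, 6 of the 63299 genes counted. The cells were LNCaP, an androgen-responsive human line from a nodal metastasis of prostate cancer, in which doxycycline switches on a short hairpin RNA that targets PRMT5, an arginine methyltransferase that places symmetric dimethyl marks on histones and splicing proteins. Polyadenylated RNA was sequenced from 4 groups of 3 libraries each: PRMT5 knockdown (doxycycline at 1 µg/mL) with 2 Gy of ionizing radiation, control (no doxycycline) with 2 Gy, knockdown with 0 Gy and control with 0 Gy. Irradiated cells were collected 24 h after the dose. All 12 libraries carry the hairpin construct, and none combines doxycycline with a cell line without it, so doxycycline and loss of PRMT5 cannot be told apart. Irradiated and unirradiated libraries were deposited as separate tables, so the dose and whatever else differed between these sets cannot be told apart either. No label states that replicates came from separate cultures, and p-values then reflect the spread among these libraries alone, which may be technical.

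A surface antigen serves as a target when its protein is abundant on tumour cells, reachable from outside and scarce elsewhere. FOLH1 (prostate-specific membrane antigen) is a zinc carboxypeptidase that trims glutamates from folates and is the target of PSMA ligands. STEAP1 and STEAP2 are 6-helix membrane proteins of a family of metalloreductases, and STEAP2 can reduce iron and copper by itself. PSCA is a small Ly6-family protein held by a lipid anchor, CD276 is an immune checkpoint ligand of the B7 family, and GRPR is a G protein-coupled receptor for the bombesin-like peptide GRP. In prostate tissue FOLH1 and the STEAP genes are known for high expression in luminal epithelial cells, and androgen signalling is known to hold FOLH1 down.

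Totals ran between 14801939 and 33158865 counts per library. PRMT5 was at 31.3, 26.9 and 24.9 TMM-scaled CPM (counts relative to the scaled library total) in knockdown libraries, against 230, 187 and 187 CPM in control libraries after 2 Gy, and at 26.6, 30.8 and 32.8 CPM in knockdown libraries, against 186, 190 and 198 CPM in control libraries without irradiation. Knockdowns therefore kept 13.8% and 15.7% of the control level, with no overlap between groups (2-sided exact permutation test, p = 0.1 in each state, the smallest that 3 against 3 libraries allow). All 9 luminal prostate markers were detected, with KLK3 (prostate-specific antigen) at 1967 TPM (counts divided by gene length, then by their library sum) in irradiated knockdowns and 1807 TPM in unirradiated controls. None of 6 leukocyte markers passed the low-count filter, which asks for the equivalent of about 10 counts in at least 3 libraries. Both irradiated replicate 1 libraries, 1 knockdown and 1 control, stood apart from the other 4 irradiated libraries: 27.8% of the 17191 genes tested lay above and 27.7% below the range of those 4. Members' calls that change without these libraries are given beside the result. Leaving out this pair was not planned beforehand.

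The members covered a wide range of levels, compared here in TPM, which divides counts by gene length. FOLH1 stood highest, at 1559 ± 498 TPM in irradiated knockdowns and 1844 ± 644 TPM in irradiated controls, and at 1960 ± 216 TPM in unirradiated knockdowns and 2491 ± 43.0 TPM in unirradiated controls (SD, n = 3 each). By mean TPM it ranked 48 and 40 among all genes in irradiated knockdowns and controls, and 33 and 26 in unirradiated knockdowns and controls. STEAP1 followed at group means of 1098 to 1252 TPM and STEAP2 at 572 to 1032 TPM. CD276 had group means of 49.6 to 67.3 TPM, PSCA of 8.34 to 12.2 TPM and GRPR of 0.315 to 2.16 TPM. The group ranges of FOLH1 and STEAP1 did not overlap in unirradiated cells, where STEAP1 reached at most 1523 TPM and FOLH1 was at least 1711 TPM. In irradiated cells they did overlap, as did those of STEAP1 and STEAP2 among unirradiated controls. Within single libraries, FOLH1 was above STEAP1 and STEAP1 above STEAP2 in all 12. CD276, PSCA and GRPR were separated from each other in every library.

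**Figure D1:**
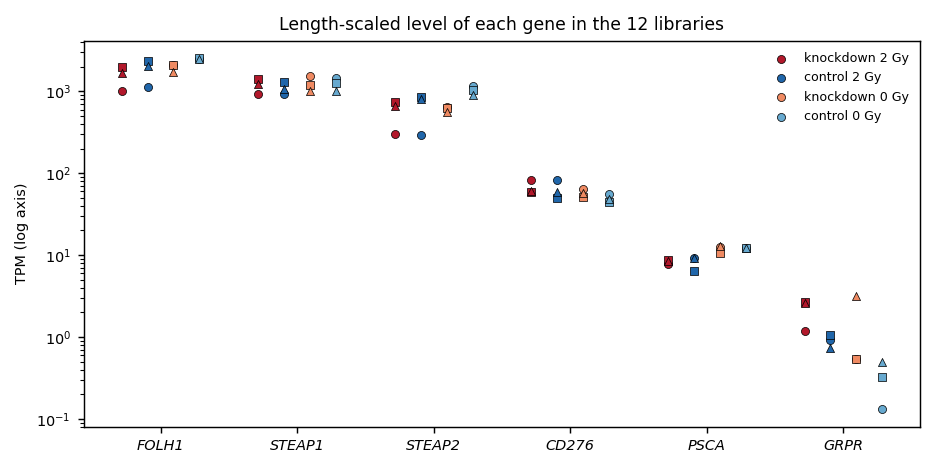
Level of each gene in TPM (log axis) in the 12 libraries, coloured by group, with a marker shape for each replicate number. FOLH1 means lie between 1559 and 2491 TPM, and GRPR lies between 0.131 and 3.17 TPM.

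No member passed the test of knockdown against control in either irradiation state (edgeR quasi-likelihood test, Benjamini-Hochberg adjusted p under 0.05 over all 17191 genes). After 2 Gy the same test called 0.297% of all genes, and without irradiation 1.54%. Averaged over both states it called 6.52% of genes and again 0 of the 6 members. Same-numbered knockdown and control libraries deviated together within each state, and a fit with the pair as a block called far more genes: 11.5% after 2 Gy, 27.8% without irradiation and 34.3% on average. That fit called 1 member after 2 Gy (GRPR), and 4 without irradiation and on average (FOLH1, STEAP2, CD276 and GRPR). Against such a background, 4 of 6 is a description of these members and not a property of the list. In bulk RNA, fewer cells with a transcript and less transcript per cell cannot be told apart.

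**Figure D2:**
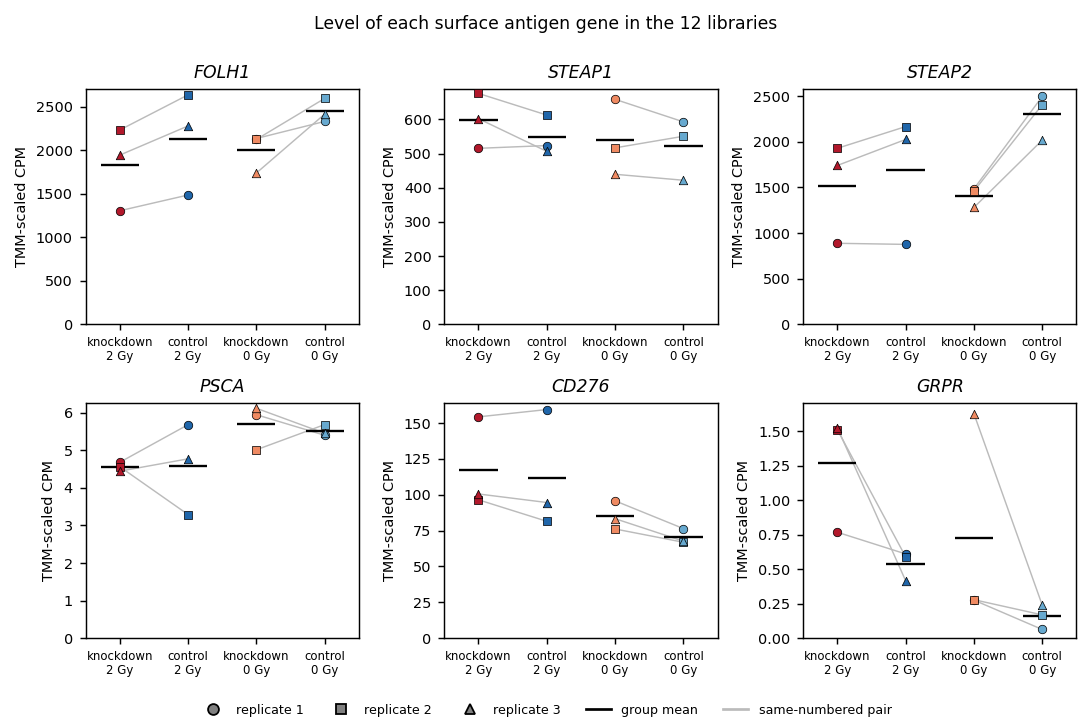
TMM-scaled CPM of the 6 genes in each library, by group, with group means as bars and grey lines joining knockdown and control libraries of the same number. STEAP2 knockdown libraries without irradiation (at most 1484 CPM) lie below all unirradiated controls (at least 2018 CPM), and irradiated replicate 1 libraries lie apart for FOLH1, STEAP2 and CD276.

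FOLH1, the PSMA gene (ENSG00000086205.16, minus strand, chromosome 11, 49146635 to 49208670 in GRCh38), was modestly lower in every knockdown library than in its paired control. After 2 Gy it had 1304, 2231 and 1943 CPM in knockdown libraries, against 1485, 2635 and 2278 CPM in control libraries. The replicate 1 pair lay far below the other 4 irradiated libraries, so the groups overlapped. Without irradiation it had 2134, 2123 and 1737 CPM in knockdown libraries, against 2330, 2594 and 2414 CPM in control libraries, with no overlap (15.8% of all genes lay wholly below). The log2 fold change was -0.22 after 2 Gy (edgeR, adjusted p = 0.836) and -0.29 ± 0.22 without irradiation (SE, 95% interval -0.78 to 0.19, adjusted p = 0.537). With the replicate block the value was -0.22 after 2 Gy (adjusted p = 0.0908) and -0.30 ± 0.08 without irradiation (SE, adjusted p = 0.015). Pair by pair, the difference lay between -0.48 and -0.13 on the log2 scale and was below 0 in 6 of 6 pairs, as it was for 14.4% of all genes. The blocked call without irradiation was lost when unirradiated pair 2 (-0.30, adjusted p = 0.0617) or pair 3 (-0.21, adjusted p = 0.14) was left out. Averaged over states the value was -0.26 (adjusted p = 0.368, and 0.0039 with the block), and without the irradiated replicate 1 pair this average was called even without a block (adjusted p = 0.0461).

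FOLH1 shares 28.1% of its 50-base words with FOLH1B, a near-identical copy on the same chromosome, so reads from these stretches may have been split or dropped in counting. FOLH1B held between 0.158 and 0.545 counts for every 100 FOLH1 counts. Of 6 FOLH1 relatives and transferrin receptor genes, 4 passed the filter and 0 were called without a block in any of the 6 comparisons. With the block, the peptidase relative NAALADL2 was called lower without irradiation (-0.23, adjusted p = 0.0231) and NAALAD2 higher on average over states (0.32, adjusted p = 0.0143). TFRC, the transferrin receptor and a sequence relative of FOLH1, was the highest of them at 153 TPM in irradiated knockdowns, 165 TPM in irradiated controls, 168 TPM in unirradiated knockdowns and 193 TPM in unirradiated controls. Of 6 genes for folate uptake and polyglutamate enzymes, 4 passed the filter and 0 were called for knockdown with or without a block, with medians of -0.03 after 2 Gy and 0.11 without irradiation on the log2 scale. Over all genes tested those medians were -0.01 and 0.01.

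STEAP1 (ENSG00000164647.8, chromosome 7, 90154375 to 90164829) and STEAP2 (ENSG00000157214.13, chromosome 7, 90167590 to 90238137) lie in tandem on the plus strand of GRCh38, 2760 bases apart. Their stretches around the transcription start, as given by RefSeq for GRCh38.p14, are shown because these neighbours gave different values in the unirradiated knockdowns. Each holds 250 bases before the start and 50 after it, at chr7:90154219-90154518 for STEAP1, chr7:90211490-90211789 for the first STEAP2 start and chr7:90213570-90213869 for the second, all on the plus strand. Both RefSeq STEAP2 starts lie inside the STEAP2 interval of the count table, downstream of its first base, so these stretches are not those next to STEAP1. Capitals mark matches on either strand to 5 motifs: the androgen receptor half-site AGAACA, the CCAAT box, the GC box GGGCGG, the TATA box TATAAA and the E-box CACGTG.
STEAP1: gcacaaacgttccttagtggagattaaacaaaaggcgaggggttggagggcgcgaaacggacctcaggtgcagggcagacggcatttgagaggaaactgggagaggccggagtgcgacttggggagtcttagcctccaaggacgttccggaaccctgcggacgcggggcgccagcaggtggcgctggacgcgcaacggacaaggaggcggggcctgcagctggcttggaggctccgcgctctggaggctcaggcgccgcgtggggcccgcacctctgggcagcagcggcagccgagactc
STEAP2 first start: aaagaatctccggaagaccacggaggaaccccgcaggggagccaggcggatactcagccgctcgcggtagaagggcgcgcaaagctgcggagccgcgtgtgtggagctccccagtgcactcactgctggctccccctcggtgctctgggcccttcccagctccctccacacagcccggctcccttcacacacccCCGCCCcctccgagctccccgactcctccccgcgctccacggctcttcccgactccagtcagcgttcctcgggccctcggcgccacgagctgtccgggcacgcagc
STEAP2 second start: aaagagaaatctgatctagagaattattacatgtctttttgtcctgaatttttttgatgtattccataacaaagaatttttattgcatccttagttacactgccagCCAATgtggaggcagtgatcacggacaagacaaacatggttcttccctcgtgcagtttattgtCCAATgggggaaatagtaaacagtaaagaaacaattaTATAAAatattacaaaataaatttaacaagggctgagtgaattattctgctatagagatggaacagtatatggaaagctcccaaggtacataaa

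The STEAP1 stretch held none of the 5 motifs. The first STEAP2 stretch held 1 GC box, and the second held 2 CCAAT boxes and 1 TATA box. The STEAP1 and first STEAP2 stretches were 66.7% and 70.3% G and C, and the second STEAP2 stretch 33.7%. Among 35116 RefSeq stretches of the same length, 14.8% held the androgen receptor half-site, 34.6% the CCAAT box, 45% the GC box, 11.5% the TATA box and 7.26% the E-box. Overlapping matches were counted separately. These matches describe the letters only. RefSeq stretches were matched for 4 of the 6 members.

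STEAP2 was lower in unirradiated knockdowns, while STEAP1 next to it was nearly level. Without irradiation STEAP2 had 1484, 1460 and 1280 CPM in knockdown libraries, against 2496, 2406 and 2018 CPM in control libraries, and the groups did not overlap. Of all genes, 15.8% had every unirradiated knockdown library below every control. The log2 fold change was -0.71 ± 0.32 (SE, 95% interval -1.42 to -0.01), a fold of 0.611, with an adjusted p of 0.283 by edgeR. With the replicate block it was -0.71 ± 0.07 (SE) with an adjusted p of 8.84e-05. Leaving out the irradiated replicate 1 pair, which enters through the shared estimate of spread, gave an adjusted p of 0.00115 without a block, and fitting the 6 unirradiated libraries alone gave 0.0113. The blocked call held when any single pair was left out, with unirradiated values between -0.73 and -0.69. Averaged over states the value was -0.43 (adjusted p = 0.295), and -0.42 with the block (adjusted p = 0.000131). Without the irradiated replicate 1 pair the average was called without a block as well (-0.46, adjusted p = 0.00256).

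After 2 Gy STEAP2 had 888, 1928 and 1740 CPM in knockdown libraries, against 876, 2166 and 2025 CPM in control libraries. The replicate 1 libraries of both groups lay below all 10 other libraries, and the groups overlapped. The log2 fold change was -0.15 (95% interval -0.86 to 0.55, adjusted p = 0.942), and -0.12 with the block (adjusted p = 0.299). Pair differences were 0.02, -0.17 and -0.22 after 2 Gy and -0.75, -0.72 and -0.66 without irradiation. The difference between states, 0.56 on the log2 scale, was not called (adjusted p = 1), nor was it with the block (0.59, unadjusted p = 0.000107, adjusted p = 0.173). Across all genes the interaction called 0 genes by edgeR, with 350 at an unadjusted p under 0.05, and DESeq2 called 1.

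STEAP1 had 515, 676 and 602 CPM in knockdown libraries, against 523, 613 and 506 CPM in control libraries after 2 Gy. Without irradiation it had 659, 517 and 439 CPM in knockdown libraries, against 593, 551 and 422 CPM in control libraries. The groups overlapped in both states. The log2 fold change was 0.13 after 2 Gy (adjusted p = 0.903) and 0.05 without irradiation (95% interval -0.34 to 0.43, adjusted p = 0.931), and the block left it uncalled in both (adjusted p = 0.32 and 0.739). The unirradiated interval does not reach the STEAP2 value of -0.71, but it overlaps the STEAP2 interval of -1.42 to -0.01. Set side by side, these intervals are no test of the difference between the 2 genes. STEAP1 shares 21.4% of its 50-base words with STEAP1B, which held 0.015 to 0.368 counts per 100 STEAP1 counts.

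The ratio of STEAP2 to STEAP1 TPM compares the neighbours within a library and so does not depend on scaling between libraries. After 2 Gy it was 0.321, 0.532 and 0.539 in knockdown libraries, against 0.312, 0.659 and 0.746 in control libraries. Without irradiation it was 0.420, 0.527 and 0.544 in knockdown libraries, against 0.785, 0.815 and 0.892 in control libraries. The unirradiated groups were far apart, and the irradiated ones overlapped through the replicate 1 libraries. The mean log2 ratio was -1.15 ± 0.43 in knockdowns and -0.90 ± 0.68 in controls after 2 Gy (SD, n = 3 each, 2-sided exact permutation p = 0.6), and -1.02 ± 0.20 in knockdowns and -0.27 ± 0.09 in controls without irradiation (exact permutation p = 0.1, the smallest possible). Over both states, permuting within each, the difference was -0.50 (exact p = 0.09 over 400 arrangements). Flipping signs over the 6 pairs gave an exact p of 0.0625, where 0.03125 is the smallest possible. The ratio was not among the tests set out beforehand, and its p-values do not allow for its choice.

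**Figure D3:**
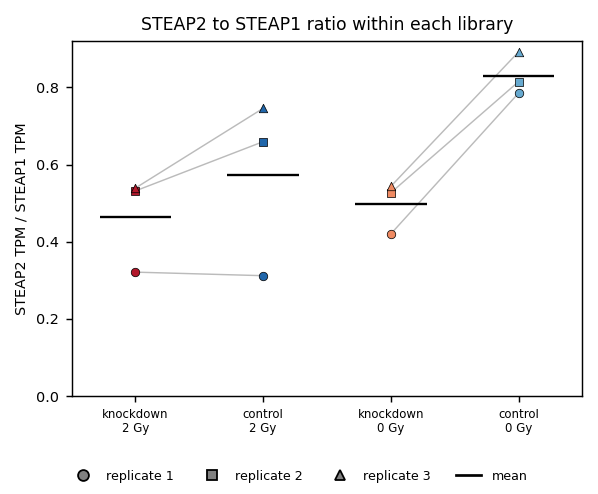
Ratio of STEAP2 TPM to STEAP1 TPM in each library by group, with group means as bars and grey lines joining same-numbered libraries. Unirradiated knockdowns (0.420 to 0.544) lie below all unirradiated controls (0.785 to 0.892), and both irradiated replicate 1 libraries lie near 0.31 to 0.32.

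Of the other genes within 500 kb of the STEAP pair, 7 passed the filter, and each had a positive unirradiated log2 fold change, so STEAP2 was the member of this neighbourhood with a negative one. None of the 7 was called without a block. With the block, CLDN12, a tight junction claudin, was called higher at 0.35 (adjusted p = 0.00856), as was GTPBP10, a mitochondrial GTPase, at 0.18 (adjusted p = 0.0428) and the gene AC002064.5, listed without a function, at 0.62 (adjusted p = 0.0414). CFAP69, a cilium protein gene, had the highest value of the 7, 0.71 (adjusted p = 0.301). The antisense gene STEAP2-AS1 was low, at a mean of 1.21 CPM.

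All 3 other STEAP family genes passed the filter, and none was called between knockdown and control without a block. STEAP3 was the highest of them, at 16.2 TPM in irradiated knockdowns and 13.5 TPM in unirradiated controls. STEAP1B was lower in the 2 Gy table: the log2 difference was -1.89 in knockdowns and -2.72 in controls, with counts of 2 to 53 per library. At such counts it may have passed the filter through the unirradiated libraries, where it was higher. Its differences are therefore a description, with no test. Of 14 iron and copper genes 11 passed the filter, and 0 were called for knockdown without a block. SLC31A1, the high-affinity copper importer, fell with 2 Gy, by a log2 difference of -0.90 in knockdowns (120.5 ± 5.29 CPM after 2 Gy and 225 ± 61.1 CPM at 0 Gy, SD, n = 3 each, edgeR adjusted p = 0.0224) and -0.92 in controls (129 ± 21.6 CPM after 2 Gy and 244 ± 8.62 CPM at 0 Gy, adjusted p = 0.027). FTH1, the ferritin heavy chain, was the most abundant gene of that list, at 1310 TPM in irradiated knockdowns, 1467 TPM in irradiated controls, 2074 TPM in unirradiated knockdowns and 2309 TPM in unirradiated controls.

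CD276 (ENSG00000103855.17, plus strand, chromosome 15, 73683966 to 73714518), the B7 family ligand, was a little higher in most knockdown libraries. After 2 Gy it had 154, 96.5 and 101 CPM in knockdown libraries, against 160, 81.5 and 94.6 CPM in control libraries. Without irradiation it had 95.8, 76.2 and 83.4 CPM in knockdown libraries, against 76.4, 66.9 and 67.6 CPM in control libraries. The groups overlapped in both states, since the lowest unirradiated knockdown lay just under the highest control. The log2 fold change was 0.07 after 2 Gy (adjusted p = 0.973) and 0.28 without irradiation (95% interval -0.25 to 0.80, adjusted p = 0.6). With the block it was 0.09 (adjusted p = 0.395) and 0.27 (adjusted p = 0.0127), and 5 of 6 pairs were above 0. The call without irradiation was lost when unirradiated pair 3 was left out (0.26, adjusted p = 0.0798). Averaged over states the value was 0.17 (adjusted p = 0.609), and 0.18 with the block (adjusted p = 0.0121). That blocked call was lost without irradiated pair 2 (adjusted p = 0.104) or pair 3 (adjusted p = 0.0595).

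In TMM-scaled CPM, irradiated libraries had more CD276 than unirradiated ones, with no overlap in knockdowns or in controls. In TPM the groups overlapped. The lowest irradiated library was at 59.1 TPM in knockdowns and 50.5 TPM in controls, and the highest unirradiated one at 65.0 and 55.5 TPM. Of all genes, 15.8% lay wholly above in knockdowns and 13.7% in controls. The log2 difference was 0.46 in knockdowns (adjusted p = 0.296) and 0.67 in controls (95% interval 0.15 to 1.20, adjusted p = 0.141), so neither was called. The irradiated replicate 1 libraries, at 154 and 160 CPM, stood above the other 4 at 81.5 to 101 CPM. Without them the difference was 0.21 in knockdowns (adjusted p = 0.245) and 0.32 in controls (adjusted p = 0.124).

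Of the 9 other B7 family genes, CD274 (PD-L1) and NCR3LG1 (the NK cell ligand B7-H6) passed the filter, and CD80, CD86 and the other 5 were at or near 0 counts or too low to test. CD274 stood at 5.40 TPM in irradiated knockdowns and 8.50 TPM in irradiated controls, and at 17.5 TPM in unirradiated knockdowns and 28.4 TPM in unirradiated controls. Irradiated replicate 1 libraries were low for the sum of the 9 genes, at 6.13 TPM in the knockdown and 5.98 TPM in the control. The other irradiated libraries held 15.4 and 14.8 TPM in knockdowns and 23.7 and 23.5 TPM in controls. Unirradiated libraries held 24.1 to 32.5 TPM in knockdowns and 41.6 to 46.1 TPM in controls. Neither CD274 nor NCR3LG1 was called without a block. With it, both were called lower in unirradiated knockdowns, CD274 at -0.66 (adjusted p = 0.0309) and NCR3LG1 at -0.53 (adjusted p = 0.018), opposite in sign to CD276.

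PSCA (ENSG00000167653.4, plus strand, chromosome 8, 142670308 to 142682724) was low in all 12 libraries and nearly level between groups. It had 4.68, 4.57 and 4.45 CPM in knockdown libraries, against 5.68, 3.29 and 4.77 CPM in control libraries after 2 Gy. Without irradiation it had 5.95, 5.02 and 6.12 CPM in knockdown libraries, against 5.40, 5.69 and 5.45 CPM in control libraries. The log2 fold change was -0.003 after 2 Gy (adjusted p = 0.999) and 0.05 without irradiation (95% interval -0.39 to 0.48, adjusted p = 0.938), and pairs split 3 above and 3 below 0. Irradiated knockdowns all lay below unirradiated ones (log2 difference -0.32, adjusted p = 0.386), as did 14.0% of all genes, while the controls overlapped. JRK, on the opposite strand, overlaps 20.9% of PSCA exon positions and held 607 to 1210 counts per 100 PSCA counts. With the block JRK was called higher in unirradiated knockdowns (0.202, adjusted p = 0.0374) and on average (0.203, adjusted p = 0.00539). After 2 Gy JRK was at 0.205 and not called (adjusted p = 0.0635). The block called 27.8%, 34.3% and 11.5% of all genes in these comparisons. Since strand use in counting is not given in the sources used here, reads of the overlap cannot be told apart. The part of JRK reads in the PSCA values was not tested.

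Of 15 other Ly6 and uPAR family genes, 5 passed the filter and 0 were called for knockdown without a block. LYPD3, a lipid-anchored adhesion protein, fell by 1.14 with 2 Gy in knockdowns (1.26 ± 0.314 CPM after 2 Gy and 2.76 ± 0.387 CPM at 0 Gy, SD, n = 3 each, edgeR adjusted p = 0.0333). With the block, 3 of the 5 were called lower after 2 Gy, 2 without irradiation and 3 on average, and 0 higher in each. Over all genes the block called 11.5%, 27.8% and 34.3%. Of the 5, LY6E and the complement inhibitor CD59 were lower in knockdowns of both states. LY6E was at -0.52 after 2 Gy (adjusted p = 0.00372) and -0.37 without irradiation (adjusted p = 0.0103), and CD59 at -0.25 (adjusted p = 0.0291) and -0.23 (adjusted p = 0.0187).

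GRPR (ENSG00000126010.5, plus strand, chromosome X, 16123556 to 16153021), the bombesin receptor, was near the detection limit and higher in knockdown than in control libraries. After 2 Gy there were 20, 43 and 34 counts in knockdown libraries, against 16, 19 and 11 in control libraries. Without irradiation there were 5, 8 and 47 counts in knockdown libraries, against 1, 4 and 5 in control libraries. In CPM the knockdowns lay above the controls in each state with no overlap, as did 5.82% of all genes after 2 Gy and 15.4% without irradiation, but 1 knockdown library held most of the unirradiated counts. Pooled over libraries, the level was 1.26 CPM (exact Poisson 95% interval 1.02 to 1.54) in knockdowns and 0.542 CPM (0.397 to 0.723) in controls after 2 Gy. Without irradiation it was 0.792 CPM (0.604 to 1.02) in knockdowns and 0.165 CPM (0.0792 to 0.304) in controls. These intervals cover counting error only.

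The GRPR log2 fold change was 1.22 ± 0.60 after 2 Gy (SE, 95% interval -0.09 to 2.53, adjusted p = 0.576) and 2.17 ± 0.76 without irradiation (SE, 95% interval 0.52 to 3.82, adjusted p = 0.165). With the block these were 1.20 (adjusted p = 0.0469) and 2.06 (adjusted p = 0.0144). Averaged over states the value was 1.69 (adjusted p = 0.059) and 1.63 with the block (adjusted p = 0.00236), and DESeq2 called the average (adjusted p = 0.016), as did edgeR without the irradiated replicate 1 pair (adjusted p = 0.0274). Without unirradiated pair 3 the blocked value was 1.12 at 0 Gy (adjusted p = 0.374) and 1.16 on average (adjusted p = 0.0687). The unblocked unirradiated value without knockdown replicate 3 was 0.75. The blocked call after 2 Gy was lost without irradiated pair 2 (1.08, adjusted p = 0.278), without irradiated pair 3 (0.90, adjusted p = 0.335) and without unirradiated pair 3 (adjusted p = 0.0534). The knockdown library was higher in 6 of 6 pairs, as for 14.4% of all genes. GRPR passed the low-count filter through 7 of 12 libraries, the 6 irradiated ones and unirradiated knockdown replicate 3, so its unirradiated value rests on few reads. RP11-431J24.2, on the opposite strand, overlaps 4.2% of GRPR exon positions.

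Irradiated control libraries had more GRPR than unirradiated ones with no overlap, as did 13.7% of all genes (log2 difference 1.70), and in knockdowns the groups overlapped (0.75). Since no unirradiated control passed the level of the filter, these differences are a description, with no test. Its ligand GRP had 0 counts in all 12 libraries, and BRS3 had 0 and NMBR 3. Of these relatives NMB, a bombesin-like peptide gene, was the one that passed the filter, at 2.24 TPM in irradiated knockdowns, 3.01 TPM in irradiated controls, 3.62 TPM in unirradiated knockdowns and 2.19 TPM in unirradiated controls, and it was not called.

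**Figure D4:**
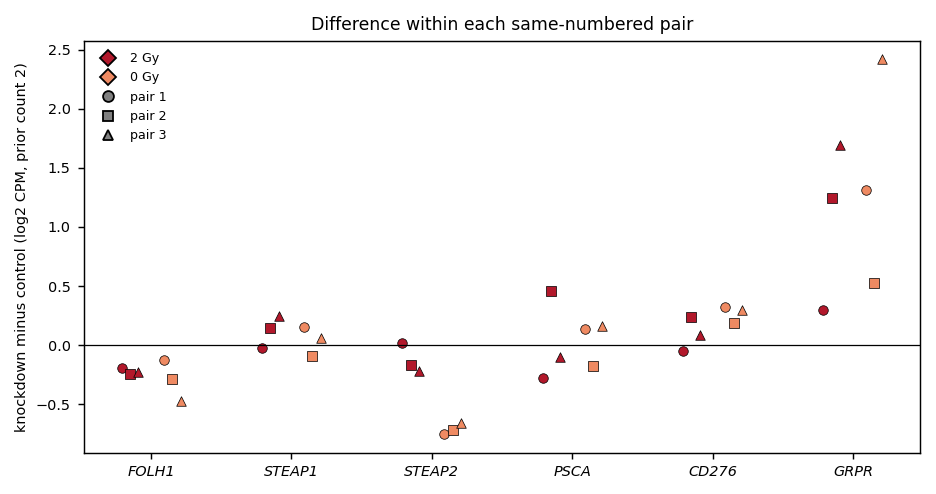
Knockdown minus control in log2 CPM (prior count 2) within each same-numbered pair, after 2 Gy and at 0 Gy, for the 6 genes. FOLH1 lies below 0 and GRPR above 0 in 6 of 6 pairs, and STEAP2 lies between -0.22 and 0.02 in irradiated pairs and between -0.75 and -0.66 in unirradiated ones.

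**Figure D5:**
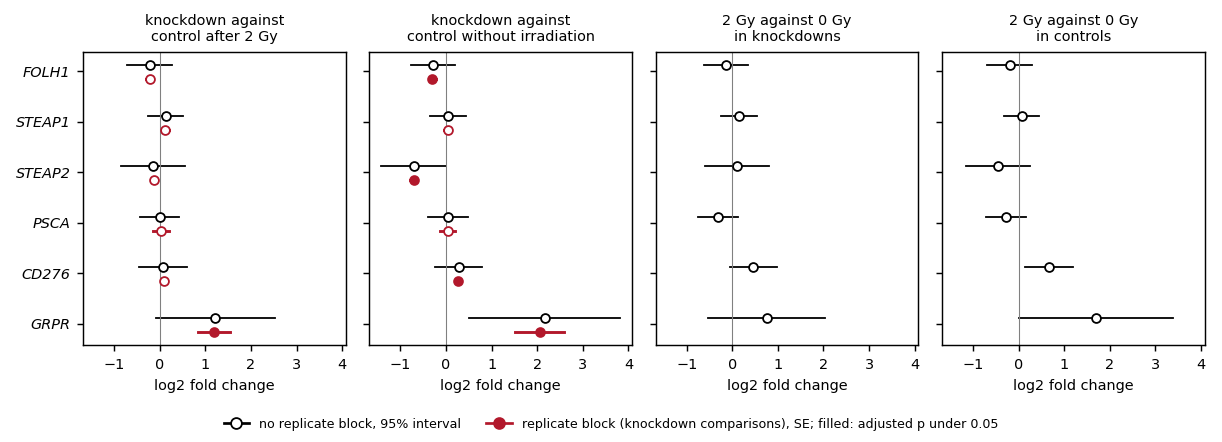
Log2 fold change of each gene in 4 panels, knockdown against control after 2 Gy and without irradiation, and 2 Gy against 0 Gy in knockdowns and in controls. Open black points give the fit without a block with its 95% interval, and red points, in the knockdown panels only, the fit with the replicate block with its SE, filled where its adjusted p was under 0.05. The red points are filled for GRPR after 2 Gy and for FOLH1, STEAP2, CD276 and GRPR without irradiation. GRPR in the panels of 2 Gy against 0 Gy is a description, with no test.

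The irradiated-against-unirradiated comparisons called 0 of 6 members in knockdowns and 0 of 6 in controls, where they called 3.58% and 2.26% of all genes. GRPR is among the 6, but its differences here are a description with no test, as it passed the filter mainly through irradiated libraries. FOLH1 had log2 differences of -0.13 in knockdowns and -0.20 in controls, STEAP1 of 0.15 and 0.07, and STEAP2 of 0.11 and -0.45. For FOLH1 and STEAP2 the irradiated replicate 1 pair carried the low values: FOLH1 lay at 1304 and 1485 CPM there and at 1943 to 2635 CPM in the other 4 irradiated libraries. STEAP2 lay at 888 and 876 CPM there and at 1740 to 2166 CPM in the other 4. Without that pair the FOLH1 difference was 0.06 in knockdowns and 0 in controls, and the STEAP2 difference was 0.38 in knockdowns (adjusted p = 0.0547) and -0.14 in controls (adjusted p = 0.534).

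By likeness of pattern, measured as the root mean square difference in centred log2 CPM over 12 libraries the nearest companions of each member were taken from 10733 genes of at least 5 CPM on average. FOLH1 was nearest to ZFP14 (0.0716), UBXN2B and CTBS, and STEAP1 to NAPG (0.0797), EID1 and DCUN1D1. STEAP2 was nearest to MICU3 (0.094), TTC33 and NBEAP1, and these had unirradiated knockdown values of -0.67, -0.52 and -0.66. PSCA was nearest to ZNF408 (0.0998), IKBKG and PIGS, and CD276 to ENDOD1 (0.0866), GOT2 and NCS1. GRPR was nearest to LRRC7 (0.598), JUNB and SIPA1L2. Its distance cannot be set beside the others, since GRPR lies below the level asked of companions and varied more (SD of log2 CPM 1.15, against 0.21 to 0.51 for the other 5).

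Of 34 other surface proteins used as targets in tumour imaging or therapy, 26 passed the filter, and 0 were called in either knockdown comparison alone without a block. Averaged over states, 3 rose and 0 fell, where 2.32% of all genes rose and 4.20% fell: SLC44A4, a choline transporter-like protein, at 0.78 (edgeR adjusted p = 0.0186), the receptor EPHA2 at 0.61 (adjusted p = 0.0179) and the pseudokinase PTK7 at 0.49 (adjusted p = 0.0279). SLC44A4 averaged 76.6 ± 19.3 CPM in knockdowns and 49.9 ± 4.04 CPM in controls after 2 Gy, and 90.1 ± 28.4 CPM in knockdowns and 47.1 ± 4.30 CPM in controls without irradiation (SD, n = 3 each). The list's median log2 fold change was -0.12 after 2 Gy and -0.13 without irradiation, beside -0.01 and 0.01 over all genes. With the block, 4 were called higher and 5 lower on average (34.3% of all genes were called). Without irradiation it called 5 higher, ERBB3, NECTIN4, SLC44A4, PTK7 and EPHA2, and 4 lower, ALCAM, TMEFF2, LY6E and ADAM9, a share of the list near the 27.8% of all genes.

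Of 12 androgen receptor axis genes all passed the filter and 0 were called without a block in any of the 6 comparisons. The median was -0.17 after 2 Gy and -0.003 without irradiation. The block called 0 of the 12 higher and 2 lower after 2 Gy, and 3 higher and 2 lower without irradiation. On average it called 3 higher and 4 lower. Over all genes the block called 11.5% after 2 Gy, 27.8% without irradiation and 34.3% on average. With the block, SLC45A3 (prostein), an androgen-driven transporter gene, was lower in knockdowns at -0.65 after 2 Gy (adjusted p = 0.00026) and -0.69 without irradiation (adjusted p = 8.57e-05). FKBP5 was higher at 0.63 without irradiation (adjusted p = 0.000242), as were HOXB13 at 0.43 (adjusted p = 0.00733) and TRPM8 at 0.84 (adjusted p = 0.00827). FOXA1 was lower at -0.23 (adjusted p = 0.0301).

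Markers that moved beside these results were as follows. Of 15 mitosis genes 0 were called for knockdown, but all 15 were negative after 2 Gy (median -1.11) and all 15 positive without irradiation (median 0.89). Their summed level was 248 to 404 TPM in irradiated knockdowns and 474 to 571 TPM in irradiated controls, and 279 to 489 TPM in unirradiated knockdowns and 100 to 450 TPM in unirradiated controls. Unirradiated pair 1 went the other way, with 279 TPM in the knockdown and 450 TPM in the control library. Unirradiated pairs 2 and 3 had 489 and 443 TPM in knockdowns, against 100 and 134 TPM in controls. CCNB1, a mitotic cyclin, rose with 2 Gy in controls by 1.35 (adjusted p = 0.0301). Among 8 fibroblast markers, 5 passed the filter and COL1A2 was at 0, and their sum was 16.6 to 19.4 TPM in irradiated knockdowns, 12.8 to 20.5 TPM in irradiated controls, 10.8 to 18.2 TPM in unirradiated knockdowns and 11.3 to 23.5 TPM in unirradiated controls. COL3A1 rose on average over states by 1.86 (adjusted p = 0.00721), to 2.56 ± 0.519 CPM in irradiated knockdowns, against 0.723 ± 0.290 CPM in irradiated controls. Over the 5 tested, 2 averages were positive and 3 negative (median -0.24), and with the block LUM was called lower (-0.61, adjusted p = 0.0462). ACTA2 rose with 2 Gy in knockdowns by 1.33 (adjusted p = 0.0347). Of 6 basal markers 3 passed, and DST fell on average by 1.01 (adjusted p = 0.0272), while TP63 had 2 counts in all. The basal sum was 2.06 to 4.89 TPM in irradiated knockdowns, 2.65 to 6.92 TPM in irradiated controls, 2.40 to 11.5 TPM in unirradiated knockdowns and 3.55 to 9.88 TPM in unirradiated controls. Of 10 neuroendocrine and 5 endothelial markers, 2 and 1 passed the filter, led by ENO2 and VWF, and none was called without a block. The part of these levels in the members' values was not tested.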

How the data were processed

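The authors deposited raw read counts per gene with gene lengths, in separate tables for the unirradiated and irradiated libraries. Per the submitters' processing notes STAR 2.5, featureCounts, Subread 1.5.3 and edgeR 3.20.8 were used with GRCh38. Strand use in counting and the annotation release were not given in these sources. Starting from the deposited counts, edgeR 4.0.16 (R 4.3.3) fitted all 12 libraries with 1 mean per group (TMM scaling, filterByExpr with a minimum count of 10 and total of 15, robust quasi-likelihood tests with 8 residual degrees of freedom, biological coefficient of variation 0.216). P-values were adjusted by Benjamini and Hochberg over 17191 genes. CPM values are TMM-scaled, pair differences use a prior count of 2, and TPM was computed from the counts and lengths. Same-numbered knockdown and control libraries correlated within a state (deviations from group means, r between 0.233 and 0.775 in 6 pairs, all above 0.1), so a fit with the pair as a block was also made (4 residual degrees of freedom). Differently numbered irradiated libraries also passed 0.1 for knockdown 2 with control 3 (r = 0.476) and knockdown 3 with control 2 (r = 0.396). All other differently numbered combinations within a state were negative. Across states same numbers did not correlate (r between -0.15 and 0.143). Fits were tested on data simulated for knockdown against control without irradiation only. The simulation used the pair means and the spread of the blocked fit, so better recovery with the block was built in. The block recovered 74% of the changed genes, with 8.64% of its calls false, above the 0.05 aimed at. The fit without a block recovered 37.5%, with 0% false. DESeq2 1.42.0, other scaling and filters, and leaving out libraries were alternatives. Among them, 3 kinds of fit were not planned beforehand: without the irradiated replicate 1 pair, without a pair under the block, and with the block and library-size scaling. No pair of replicates agreed within counting noise.

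The 6 members and the gene lists were chosen with earlier results of these data known. Genes named were the members, PRMT5, the 3 most similar genes per member, list genes called in a comparison or else the most abundant, and genes overlapping a member or sharing 50-base words with it; list genes called only with the block, the STEAP neighbours, and list genes at or near 0 counts were chosen after their values were seen. Lists cover other surface targets, FOLH1 relatives, folate, STEAP, iron and copper, B7, bombesin, Ly6, androgen receptor axis and mitosis genes, and luminal, basal, neuroendocrine, fibroblast, leukocyte and endothelial markers.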

Additional observations from a re-analysis of the deposited data

How the results depend on the processing

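Without a block, 0 of 6 members were called in each of the 6 comparisons. These 6 members include GRPR, whose differences between 2 Gy and 0 Gy are a description with no test. For knockdown without irradiation the count was 1 (STEAP2) with the 6 libraries alone or with the irradiated replicate 1 pair left out, 4 with the replicate block and 4 with the block and library-size scaling. All genes called were 1486, 2564, 4776 and 4784, in that order. After 2 Gy the members' count was 1 with the replicate block and 1 with library-size scaling added. All genes called there were 1974 and 1933. Averaged over states the members' count was 1 (GRPR) without a filter or with DESeq2, 3 without the irradiated replicate 1 pair, 4 with the block and 4 with library-size scaling added. All genes called on average were 955 of 34300 without a filter and 2035 with DESeq2. They were 3378 without that pair, 5894 with the block and 5828 with library-size scaling added. For 2 Gy in controls a block on the number across states called 1 member (CD276, adjusted p = 0.0412), also with library-size scaling, but those libraries share only a number. All genes called there were 965, and 1360 with library-size scaling. Leaving out libraries, or pairs under the block, gave 0 to 4 members for knockdown without irradiation, 0 to 2 after 2 Gy, 0 to 4 averaged and 0 to 1 for the interaction (STEAP2 without unirradiated pair 1, 0.57, adjusted p = 0.00544, where 710 genes were called). All genes called then ranged from 31 to 5234, 4 to 3450, 440 to 6674 and 0 to 710 in those 4 comparisons.

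Some log2 values changed sign. PSCA after 2 Gy (-0.003) was 0.001 with DESeq2 size factors, 0.006 with DESeq2, 0.027 with the block, 0.021 with the block and library size, and 0.162 without the irradiated replicate 1 pair. STEAP1 with 2 Gy in controls was -0.084 by library size and -0.076 with the block added. STEAP2 with 2 Gy in knockdowns was -0.028 and -0.112 under those settings, which shift the median of all genes by -0.149 in knockdowns and -0.156 in controls. Without the irradiated replicate 1 pair, FOLH1 with 2 Gy was 0.064 in knockdowns and 0 in controls, and the PSCA interaction was 0.124. Leave-one-out values ran, for knockdown without irradiation, from -0.125 to 0.17 for STEAP1 and -0.027 to 0.154 for PSCA. After 2 Gy they ran from -0.464 to 0.113 for STEAP2, -0.212 to 0.185 for PSCA and -0.198 to 0.414 for CD276, and averaged from -0.09 to 0.111 for PSCA. For 2 Gy they ran in knockdowns from -0.301 to 0.063 for FOLH1 and -0.102 to 0.381 for STEAP2, and in controls from -0.368 to 0.001 for FOLH1 and -0.062 to 0.171 for STEAP1. For the interaction they ran from -0.128 to 0.26 for FOLH1, -0.041 to 0.252 for STEAP1, -0.251 to 0.153 for PSCA, -0.467 to 0.145 for CD276 and -1.421 to 0.476 for GRPR. The cause was not tested. Of the members' other log2 values under alternatives, 719 kept direction and side of the threshold and 76 passed it newly.

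Counts over all genes moved more: 265 without irradiation became 1047 with DESeq2, 1486 with 6 libraries, 2564 without the irradiated replicate 1 pair and 4776 with the block, and 51 after 2 Gy became 273, 1, 325 and 1974. The averaged 1120 became 2035 with DESeq2, 3378 without that pair and 5894 with the block. For 2 Gy, 615 in knockdowns became 1438, 344, 1806 and 1157 and 389 in controls 1377, 64, 868 and 965 under DESeq2, 6 libraries, that pair left out and the block, and 613 in controls by library size and 592 unfiltered. GRPR is limited by depth, and 3 counts correspond to 0.0932 to 0.188 CPM.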
